A study of Mus musculus with 20 samples.

Results

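The response of enhancer-null blood progenitors to returned GATA2 was read from 8 of the 20 RNA-seq libraries of the series. The members were chosen by their labels alone: 4 libraries of cells lacking the Gata2 enhancer and infected with a Gata2 retrovirus (GATA2 cells), and 4 of cells with the same deletion and a control retrovirus (control-vector cells). All 8 came from Lin-negative progenitors, that is, cells without surface markers of mature blood lineages, of C57BL/6J mouse fetal livers at stage E14.5. Both groups lack the element 77 kb upstream of Gata2, were infected straight after isolation with a murine stem cell virus (pMSCV) vector, and grew for 3 days in IMDM with 20% serum, 4% interleukin-3 and 4% stem cell factor conditioned medium. Of the 12 other libraries, 4 from wild-type cells with the control vector serve below as a level to set the GATA2 cells beside. The other 8, from enhancer-null cells given a retrovirus for a GATA2 mutant (4 libraries each of R307W and T354M), are not compared. All 12 also entered the choice of genes tested, the scaling of counts and the estimate of spread, and served in fits with replicate number as a block. The labels do not say whether replicates were separate animals or cultures or which Gata2 sequence the vector carried, so p-values measure only the spread between these libraries, and Gata2 counts cannot separate vector from endogenous transcripts.

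GATA2 is a zinc finger transcription factor that binds GATA motifs and is needed to form and keep blood stem and progenitor cells. In the erythroid line it is replaced on chromatin by its relative GATA1, whereas mast cells, basophils and eosinophils are lineages known to use it in their own differentiation. Monocytes, dendritic cells and neutrophils are built by another set of factors, among them PU.1, IRF8 and the C/EBP proteins.

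Levels are CPM, counts scaled to a common library size with the trimmed mean of M values, listed in the order of replicates 1, 2, 3 and 4, and log2 differences are GATA2 cells minus control-vector cells with their standard error (SE). Adjusted p-values are from edgeR's quasi-likelihood test with Benjamini-Hochberg adjustment over 15835 genes, and a gene rose or fell where that value was under 0.05. At that threshold 19.2% of all genes tested changed, with 11.0% rising (1738 genes) and 8.23% falling (1304 genes). In 14.3% of all genes tested every GATA2 library lay above every control-vector library, and in 14.0% every control-vector library lay above every GATA2 library. The 8 libraries held 22776714 to 29727013 expected counts each.

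The changes were lopsided in size. Among genes that rose, 414 rose more than 4-fold, 127 more than 16-fold and 48 more than 64-fold, whereas 20 fell more than 4-fold and 0 more than 16-fold. The median log2 difference was 0.94 among genes that rose and -0.84 among genes that fell, and 0.00 over all genes tested. Of the genes that rose, 1691 (97.3%) were higher in all 4 same-numbered pairs of libraries, against 24.1% of all genes tested. Of those that fell, 1293 (99.2%) were lower in all 4, against 24.3% of all genes tested. Calls were made on these same values, so this agreement follows largely from the selection. In RNA from a mixture of cells, more cells of a type and more RNA per cell of that type cannot be told apart.

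**Figure D1:**
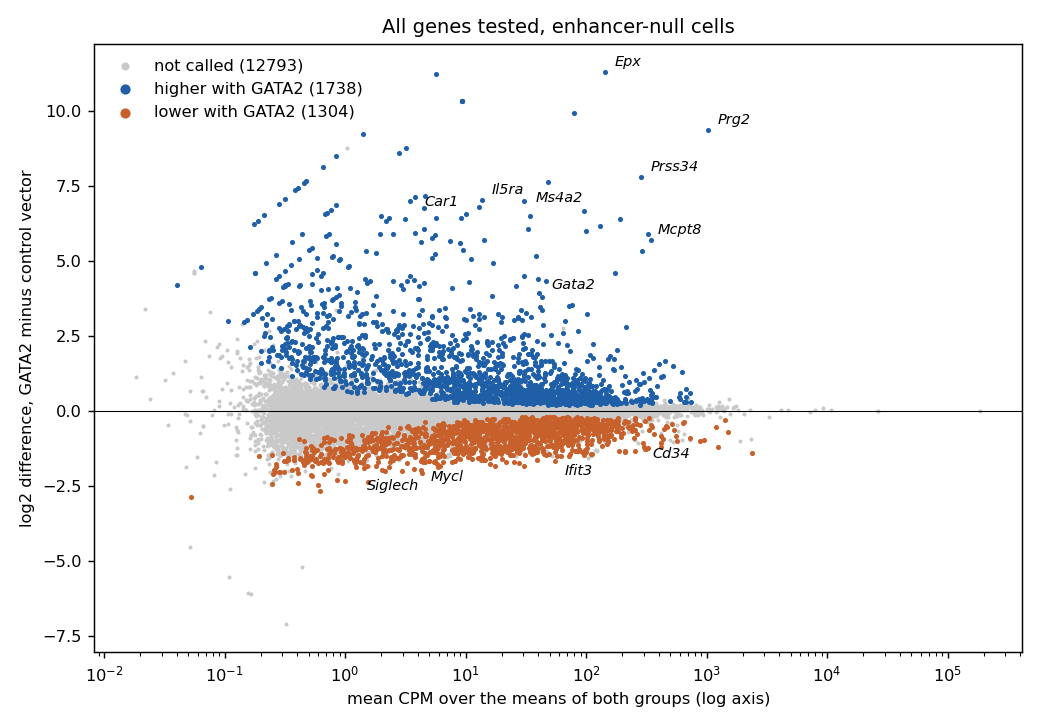
Log2 difference (GATA2 minus control vector, vertical axis) of each of 15835 genes against its mean CPM (horizontal log axis), with genes that rose in blue, genes that fell in orange and the rest in grey. The blue points reach a log2 difference of 11.30 (Epx), while no orange point passes a 16-fold fall.

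Gata2 itself measured 70.95, 76.7, 42.9 and 132 CPM in GATA2 cells, against 5.53, 5.24, 4.72 and 7.67 CPM in control-vector cells, and in wild-type cells 44.3 ± 9.80 CPM (SD, n = 4). All GATA2 libraries were above all control-vector libraries (log2 difference 3.80, SE 0.37, adjusted p = 2.41e-06), with replicate 4 highest and replicate 3 lowest in both groups. The level in GATA2 cells was not called different from wild-type cells (log2 difference 0.86, SE 0.33, adjusted p = 0.051). In that comparison with wild-type cells, 30.7% of all genes tested were called. Gata2 lies on chromosome 6 from 88193891 to 88207032 of GRCm38.

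The same order of libraries ran through most of the response. Of the 1738 genes that rose, 1119 (64.4%) had GATA2 library 4 highest and library 3 lowest among the 4, a pattern found in 16.5% of all genes tested. Of the 1304 genes that fell, 836 (64.1%) had library 4 lowest and library 3 highest, against 16.4% of all genes tested. The leading principal component of the 8 libraries (59.6% of the variance) placed the GATA2 libraries at -46.4, -43.2, -14.7 and -81.9, and the control-vector libraries at 47.3, 46.3, 47.2 and 45.5. Library 3 was thus the nearest to the control-vector cells and library 4 the farthest. Control-vector library 4 also stood apart from its group, on the second axis (11.9% of the variance), at -44.6 where the other 3 lay at 8.3, 11.7 and 7.5, and GATA2 library 4 lay on that side too, at -28.9. The Y-linked gene Ddx3y measured 7.63, 46.04, 52.5 and 0 CPM in GATA2 cells, against 7.52, 52.4, 53.2 and 0 CPM in control-vector cells, with the same order in both groups. The part of the vector's level and of the embryos' sex in the order of the libraries was not tested.

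Counts of genes called depend on the libraries kept. Without GATA2 library 1, 2, 3 or 4, the share of all genes tested that rose was 8.80%, 9.21%, 11.9% or 7.16%, and the share that fell was 4.66%, 4.67%, 9.11% or 2.61%. Without control-vector library 1, 2, 3 or 4, 8.84%, 9.05%, 8.55% or 9.04% rose and 5.61%, 5.93%, 5.47% or 4.34% fell. Leaving out GATA2 library 4 took away the most calls in both directions, and leaving out library 3 of the same group added some. With library 4 left out of every group, 7.87% rose and 4.77% fell, and with replicate number as a block, 13.2% rose and 12.6% fell. A library given below as left out was left out alone, and a count is given where leaving it out moved that count by over 1.5 times.

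GATA factors and their partners rose in part. Of 16 tested 10 rose and 0 fell, with a median log2 difference of 0.96, and the same count rose without GATA2 library 4. Gata2, which the vector carries, is counted among those that rose, so its rise was fixed by the design. Gata1, the relative of GATA2 that drives red cell, megakaryocyte, mast cell and eosinophil genes, measured 45.5, 45.8, 29.6 and 73.5 CPM in GATA2 cells, against 5.38, 5.19, 4.19 and 7.32 CPM in control-vector cells (log2 difference 3.13, SE 0.37, adjusted p = 1.49e-05). It followed Gata2 in order, highest in library 4 and lowest in library 3 of both groups, and stayed below wild-type cells, with 90.7 ± 9.20 CPM (SD, n = 4) there (log2 difference -0.90, adjusted p = 0.0481). Zfpm1, the cofactor FOG1, rose by 2.06, the repressor Gfi1b by 2.17, the erythroid factor Klf1 by 3.02 and Samd14, a known GATA2 target in erythroid precursors, by 2.25. Runx1, Myb, Tal1 and Nfe2 rose by 1.03, 1.03, 0.89 and 0.79. The stem cell complex that binds with GATA2 includes Tal1 and Runx1, which rose. Other members had no call, with log2 differences of -0.35 for Lyl1, -0.11 for Lmo2, 0.20 for Fli1 and 0.34 for Erg. Their adaptor Ldb1 (log2 difference 0.36) passed only with replicate number as a block (adjusted p = 0.0392). Gata3 had too few counts to be tested.

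Eosinophil genes had the highest median difference of the lists. Of 11 tested members of a list of eosinophil genes 10 rose and 0 fell, with a median log2 difference of 6.98. Their summed level was 3050.2, 3325, 1894 and 3318 CPM in GATA2 cells, against 48.4, 40.3, 40.2 and 35.9 CPM in control-vector cells, and in wild-type cells it was 870 ± 203 CPM (SD, n = 4). The 4 GATA2 libraries lay 46.0 to 80.7 times above the mean of the control-vector libraries.

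The granule proteins led the list. Epx, eosinophil peroxidase, measured 265, 327, 193 and 362 CPM in GATA2 cells, against 0.0376, 0.0419, 0.306 and 0.0711 CPM in control-vector cells (log2 difference 11.30, SE 0.78, adjusted p = 3.31e-08). Prg2, the major basic protein of the granule core, measured 2173, 2364, 1336 and 2329 CPM in GATA2 cells, against 2.48, 1.84, 5.64 and 2.52 CPM in control-vector cells (log2 difference 9.37, SE 0.65, adjusted p = 3.61e-08). Its relative Prg3 measured 178, 174, 121 and 162 CPM in GATA2 cells, against 0.188, 0.126, 0.306 and 0.0355 CPM in control-vector cells (log2 difference 9.93, SE 0.60, adjusted p = 1.56e-08). In all of them the 4 GATA2 libraries lay far above the 4 control-vector libraries. They also lay above wild-type cells, which averaged 69.5 ± 8.66 CPM of Epx, 505 ± 132 CPM of Prg2 and 37.1 ± 8.99 CPM of Prg3 (SD, n = 4), with log2 differences of 2.05, 2.02 and 2.10 and adjusted p-values of 0.00149, 0.00249 and 0.000196.

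The ribonucleases Ear1, Ear2 and Ear6, an eosinophil-associated family with near-identical copies whose reads can be shared, rose by log2 differences of 7.62, 3.93 and 6.98. Among surface receptors, Il5ra, the receptor chain for the eosinophil growth factor interleukin 5, measured 29.6, 31.2, 21.6 and 26.8 CPM in GATA2 cells, against 0.226, 0.0419, 0.218 and 0.320 CPM in control-vector cells (log2 difference 7.02, SE 0.43, adjusted p = 1.56e-08). The 4 GATA2 libraries of Il5ra stood close together. Ccr3, the eotaxin receptor, measured 8.38, 6.58, 1.42 and 10.01 CPM in GATA2 cells, against 0.301, 0.251, 0.0874 and 0.497 CPM in control-vector cells (log2 difference 4.48, SE 0.84, adjusted p = 0.00106), with GATA2 library 3 far below the other 3. Siglecf, a sialic acid binding lectin of eosinophils, had a higher starting level, with 48.1, 56.4, 42.3 and 53.8 CPM in GATA2 cells against 12.2, 9.93, 12.2 and 12.3 CPM in control-vector cells (log2 difference 2.11, SE 0.20, adjusted p = 2.2e-06). Alox15, a lipoxygenase, rose by 6.05, and the adhesion receptor Adgre4 did not change detectably (log2 difference 0.05).

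Mast cell and basophil granule proteases rose with them. Of 11 tested 10 rose and 0 fell, with a median log2 difference of 5.88, which is the same with the members near zero in control-vector cells set at their bound. The summed level was 2014, 1718, 907 and 3173 CPM in GATA2 cells, against 21.4, 27.9, 28.7 and 32.8 CPM in control-vector cells. GATA2 library 4 held 3.50 times as much as library 3, compared with 1.75 times for the eosinophil list.

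Mcpt8, the protease that marks mouse basophils, measured 679, 571, 255 and 1072 CPM in GATA2 cells, against 9.89, 11.3, 10.9 and 11.7 CPM in control-vector cells (log2 difference 5.88, SE 0.46, adjusted p = 2.12e-07). Prss34, a tryptase of basophils and mast cells, measured 547, 507, 296 and 913 CPM in GATA2 cells, against 1.24, 0.880, 2.36 and 5.61 CPM in control-vector cells (log2 difference 7.78, SE 0.86, adjusted p = 8.12e-06). Cpa3, carboxypeptidase A3, measured 719, 594, 343 and 1039 CPM in GATA2 cells, against 9.36, 13.99, 14.4 and 14.2 CPM in control-vector cells (log2 difference 5.70, SE 0.46, adjusted p = 2.25e-07). In each of these genes all GATA2 libraries were far above all control-vector libraries, with library 4 highest and library 3 lowest. Tpsb2, a connective-tissue mast cell tryptase, had 1296 counts in GATA2 cells and 0 in control-vector cells, at least 384-fold higher taking 3 counts in the whole group as the floor, and its level ran from 0.337 CPM in GATA2 library 3 to 30.6 CPM in library 4. The membrane tryptase Tpsg1 had 725 counts against 1, a ratio of 669 (95% counting interval 119.6 to 26445). The chymase gene Mcpt4 had 157 counts against 1, with 4.18 CPM in library 4 and 0.0375 CPM in library 3. Mcpt1, a mucosal mast cell chymase, was the member without a call (log2 difference 2.38). The protease genes form clusters of near copies, so some of their reads may be shared, and such bounds reflect counting error alone.

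The receptor for immunoglobulin E (IgE) and the enzymes of mast cell and basophil mediators followed, with 10 of 16 rising and 2 falling. Ms4a2, the beta chain of the receptor, measured 180.3, 163, 133 and 284 CPM in GATA2 cells, against 1.84, 1.80, 2.10 and 1.71 CPM in control-vector cells (log2 difference 6.67, SE 0.62, adjusted p = 1.45e-06). Fcer1a, the alpha chain that binds IgE, had 628 counts in GATA2 cells and 1 in control-vector cells, a ratio of 579 (95% counting interval 104 to 22912). Fcer1g, the gamma chain shared with other Fc receptors, did not change detectably (log2 difference 0.02). Hdc, which makes histamine, measured 569.5, 508, 280.2 and 914 CPM in GATA2 cells, against 14.3, 14.9, 12.1 and 15.4 CPM in control-vector cells (log2 difference 5.32, SE 0.34, adjusted p = 1.74e-08). Tph1 of serotonin synthesis, the vesicle amine transporter Slc18a2, the leukotriene enzyme Alox5, the heparan sulphate sulphotransferase Hs3st1 and the granule proteoglycan Srgn rose by 6.76, 5.15, 4.58, 4.25 and 1.66. In prostaglandin synthesis Hpgds fell by 1.22 and Ptgs1 by 0.72 on the log2 scale. Hpgds lost its call without GATA2 library 1, 2 or 4 and Ptgs1 without GATA2 library 1 or 4 or control-vector library 2 or 4 (adjusted p 0.0501 to 0.0993).

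Promoters of genes from these groups, and that of Il5ra, are printed because they belong to genes among the most changed and show where the letters a GATA factor reads do and do not occur. Each is the 150 bases before the start given by RefSeq (build GRCm38.p6), with the words AGATAA and AGATAG, and the words TGATAA and TGATAG, read on either strand, in capitals. Positions are chr2:84988065-84988214 (plus strand) for Prg3, chr17:25298244-25298393 (plus strand) for Prss34, chr3:20242182-20242331 (minus strand) for Cpa3, chr19:11623720-11623869 (minus strand) for Ms4a2, chr1:173227230-173227379 (minus strand) for Fcer1a, chr6:106749038-106749187 (minus strand) for Il5ra and chr11:87875537-87875686 (minus strand) for Epx.
Prg3: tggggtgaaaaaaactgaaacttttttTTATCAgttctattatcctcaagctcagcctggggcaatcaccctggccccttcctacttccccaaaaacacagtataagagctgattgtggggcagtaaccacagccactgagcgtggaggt
Prss34: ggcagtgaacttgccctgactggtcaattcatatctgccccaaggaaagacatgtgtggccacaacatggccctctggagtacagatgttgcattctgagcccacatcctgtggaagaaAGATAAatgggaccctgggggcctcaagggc
Cpa3: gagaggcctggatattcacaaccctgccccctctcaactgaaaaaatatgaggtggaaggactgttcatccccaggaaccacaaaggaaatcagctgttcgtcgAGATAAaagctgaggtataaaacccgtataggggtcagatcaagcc
Ms4a2: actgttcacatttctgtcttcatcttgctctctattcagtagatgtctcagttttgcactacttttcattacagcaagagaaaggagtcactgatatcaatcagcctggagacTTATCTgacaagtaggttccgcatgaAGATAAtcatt
Fcer1a: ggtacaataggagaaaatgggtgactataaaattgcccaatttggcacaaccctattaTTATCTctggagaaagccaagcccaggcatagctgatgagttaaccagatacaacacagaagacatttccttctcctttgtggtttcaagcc
Il5ra: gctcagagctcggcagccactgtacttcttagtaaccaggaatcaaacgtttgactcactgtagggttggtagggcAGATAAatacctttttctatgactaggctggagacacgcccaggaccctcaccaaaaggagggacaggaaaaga
Epx: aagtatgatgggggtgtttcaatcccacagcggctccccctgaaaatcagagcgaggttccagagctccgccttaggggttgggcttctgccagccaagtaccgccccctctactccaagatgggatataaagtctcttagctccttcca
In Prg3 the word begins 123 bases before the start, in Fcer1a 92, in Il5ra 74, in Cpa3 46 and in Prss34 31 bases before it, and Ms4a2 holds one at 37 and one at 11 bases. None of the 4 words is in the window of Epx, the gene with the highest difference, nor in the 300 bases around the start of Ear1, Slc26a3, Gata1 or Mcpt8. Among genes that fell, Siglech holds AGATAG 42 bases before its start, and Mycl holds none of the words in its 300 bases. Of all 32851 promoter windows of 300 bases, 29.8% hold at least 1 of the words, in windows longer than the 150 bases printed. A match is therefore a description of letters and not a binding site. A share among the genes tested, or among those that rose or fell, is not given, because only 67.6%, 74.4% and 76.4% of them had a window, which makes that check void.

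**Figure D2:**
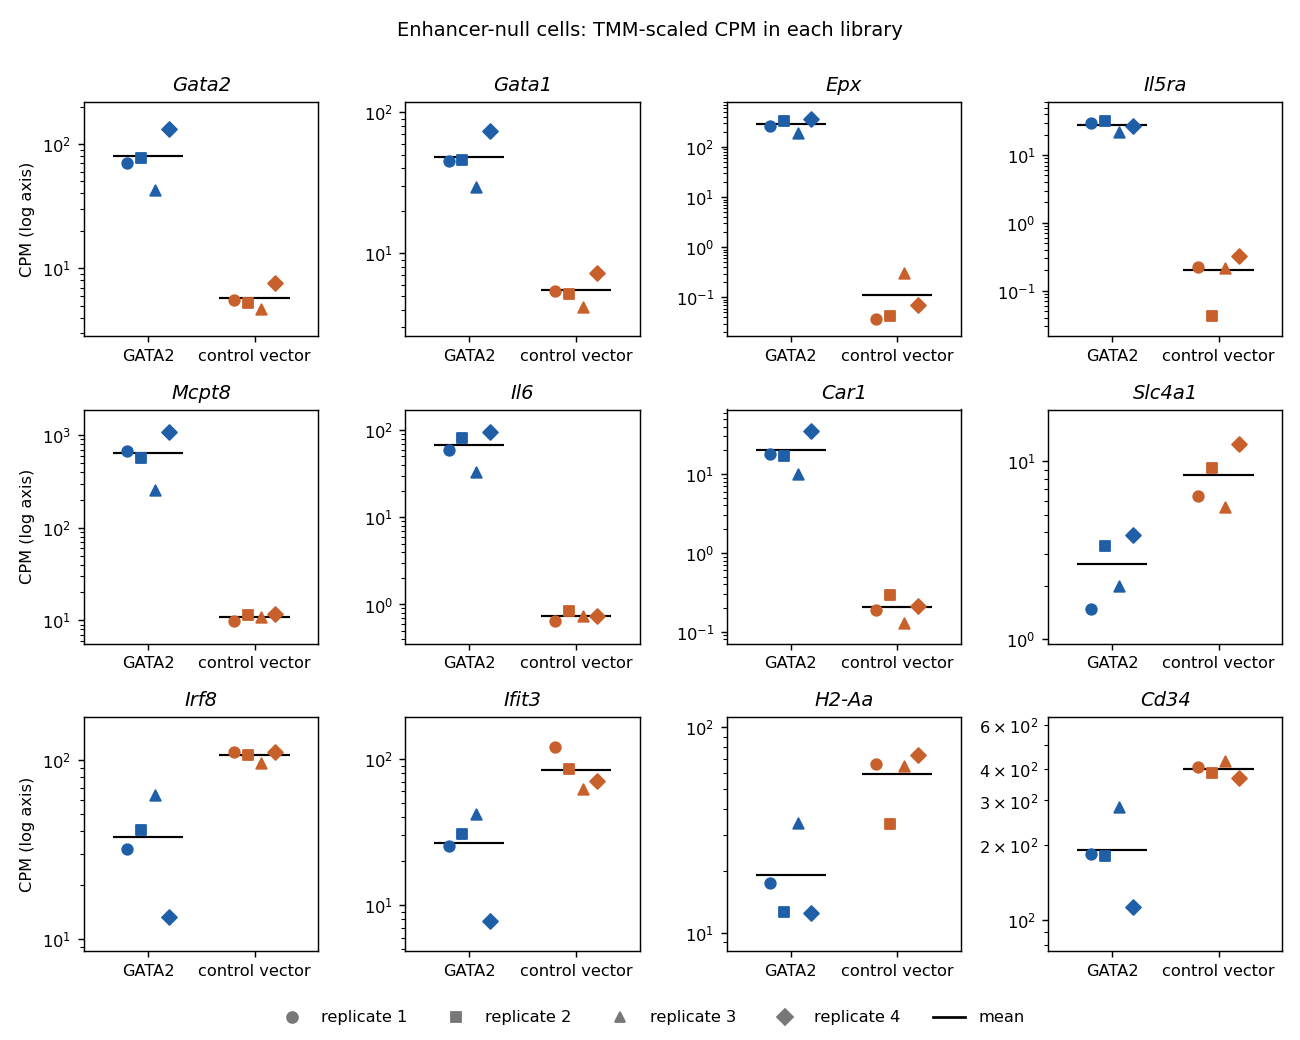
CPM (vertical log axis, a scale of its own in each panel) of 12 genes in the 4 GATA2 libraries (blue, left) and the 4 control-vector libraries (orange, right), with symbols for replicates and a bar at the mean. Gata2, Gata1, Epx, Il5ra, Mcpt8, Il6 and Car1 are higher in every GATA2 library, Slc4a1, Irf8, Ifit3 and Cd34 are lower in every one, and for H2-Aa the groups touch.

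Cytokine genes known from mast cells and basophils were among those that rose. Of 24 cytokine and chemokine genes tested 10 rose and 1 fell, with a median log2 difference of -0.24. Il4, a cytokine of basophils and mast cells, measured 8.09, 5.94, 3.22 and 10.2 CPM in GATA2 cells, against 0.0376, 0, 0.0874 and 0.0711 CPM in control-vector cells (log2 difference 6.99, SE 0.82, adjusted p = 1.41e-05). Il6 measured 60.1, 80.97, 33.02 and 96.2 CPM in GATA2 cells, against 0.639, 0.838, 0.743 and 0.746 CPM in control-vector cells (log2 difference 6.50, SE 0.62, adjusted p = 2.08e-06), and its receptor gene Il6ra fell (log2 difference -1.34). Il13 had 169 counts in GATA2 cells and 1 in control-vector cells, a ratio of 156 (95% counting interval 27.6 to 6192). Osm, Lif, Csf1, Ccl3, Ccl6, Ccl9 and Ccl17 rose by 3.12, 2.07, 2.87, 1.54, 1.23, 0.58 and 5.36. Tnf and Il1b, inflammatory cytokines of monocytes and macrophages, had log2 differences of -0.23 and -0.31 and no call. Cxcl10, an interferon-induced chemokine, fell (log2 difference -1.71, SE 0.55, adjusted p = 0.035). Il6ra lost its call without GATA2 library 1, 2 or 4 or control-vector library 1, 2, 3 or 4, Ccl9 without GATA2 library 2 or 4 or control-vector library 4 and Cxcl10 without GATA2 library 1, 3 or 4 or control-vector library 1 or 2 (adjusted p 0.0544 to 0.152). In the fit with replicate number as a block, 4 members fell, and in the fit without it 2 fell when GATA2 library 3 was left out.

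Cytokine receptors divided, with 9 of 28 rising and 10 falling. Il1rl1, the interleukin 33 receptor of mast cells and basophils, measured 402, 284, 174 and 647 CPM in GATA2 cells, against 3.38, 3.43, 5.51 and 5.76 CPM in control-vector cells (log2 difference 6.38, SE 0.64, adjusted p = 2.88e-06). Il9r rose by 5.10, Il18r1 by 3.71 and the erythropoietin receptor Epor by 2.39. Csf2rb, the beta chain shared by the receptors for interleukin 3, interleukin 5 and GM-CSF, rose too, by 1.28. Csf2rb2, in the mouse a beta chain of the interleukin 3 receptor only, rose by 2.21. Among the alpha chains of these 3 receptors Il5ra rose and the GM-CSF chain Csf2ra fell (-0.89). The interleukin 3 chain Il3ra had a log2 difference of 0.97 without a call (adjusted p = 0.116, or 0.0265 with replicate number as a block). The receptors of other myeloid growth factors fell, Csf1r for M-CSF by 1.26, Csf3r for G-CSF by 1.03 and Flt3 by 1.51 on the log2 scale. Csf1r lost its call without GATA2 library 1, 2 or 4 or control-vector library 1, 2 or 4 and Flt3 without GATA2 library 4 (adjusted p 0.0518 to 0.105). Of the receptors, 5 fell without GATA2 library 4. Kit, the stem cell factor receptor, measured 107, 93.6, 70.4 and 122 CPM in GATA2 cells, against 78.2, 79.5, 73.4 and 74.9 CPM in control-vector cells (adjusted p = 0.053, or 0.0374 with replicate number as a block). The groups of Kit overlap.

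Chemokine receptors went both ways, with 3 of 11 rising (Ccr3, Cxcr2 and Cxcr4) and 3 falling (Ccr9, Cxcr3 and Cx3cr1). The monocyte receptor Ccr2 measured 504, 482, 620.1 and 312 CPM in GATA2 cells, against 782, 922, 844 and 740.02 CPM in control-vector cells without overlap, and it passed the threshold only with replicate number as a block (adjusted p = 0.123, or 0.0133 with the block). The number that fell was 0 without GATA2 library 2 or 4, 1 without GATA2 library 1 or control-vector library 1, 2 or 4. Among Fc gamma receptors, the inhibitory Fcgr2b and the activating Fcgr3 rose (1.14 and 1.25), and the monocyte receptor Fcgr1 fell (-1.23). Ccr9 lost its call without GATA2 library 2, 3 or 4 or control-vector library 1, 2 or 4, Cxcr3 without GATA2 library 1, 2 or 4 or control-vector library 2 and Cx3cr1 without GATA2 library 1, 2 or 4 or control-vector library 1 or 4. Fcgr1 did so without GATA2 library 1, 2 or 4 or control-vector library 1, 2, 3 or 4 (adjusted p 0.0521 to 0.126 over all of these).

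Genes of cytokine signalling went both ways. Of 18 tested 4 rose and 5 fell. The rising genes were the STAT5-induced inhibitors Socs2 (2.10) and Cish (2.11), the kinase gene Jak2 (0.85) and Stat5a (0.51). Among those that fell were Stat2 (-0.86), Stat3 (-0.26), Stat6 (-0.30) and the phosphatase gene Ptpn6 (-0.77). Without GATA2 library 4 the fall was called for 3 of the list. Of 22 immediate early and MAPK feedback genes 7 rose, with Egr1 (1.81), Egr3 (1.59), Dusp5 (0.90), Spry2 (1.13) and Spry4 (1.91) among them. Jun fell (log2 difference -1.09, SE 0.28, adjusted p = 0.0113), and Myc had a log2 difference of 0.00. The list mixes growth factor response and stress genes, and its members went both ways. In the fit with replicate number as a block, 8 rose and 4 fell, Fos among those (adjusted p = 0.0193), and 3 fell without GATA2 library 3. Stat5a and Stat6 lost their call without GATA2 library 4, Stat3 without GATA2 library 1, 2 or 4 or control-vector library 1, 3 or 4 and Dusp5 without GATA2 library 2 or 4. Jun did so without control-vector library 4 (adjusted p 0.0502 to 0.136 over all of these).

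**Figure D3:**
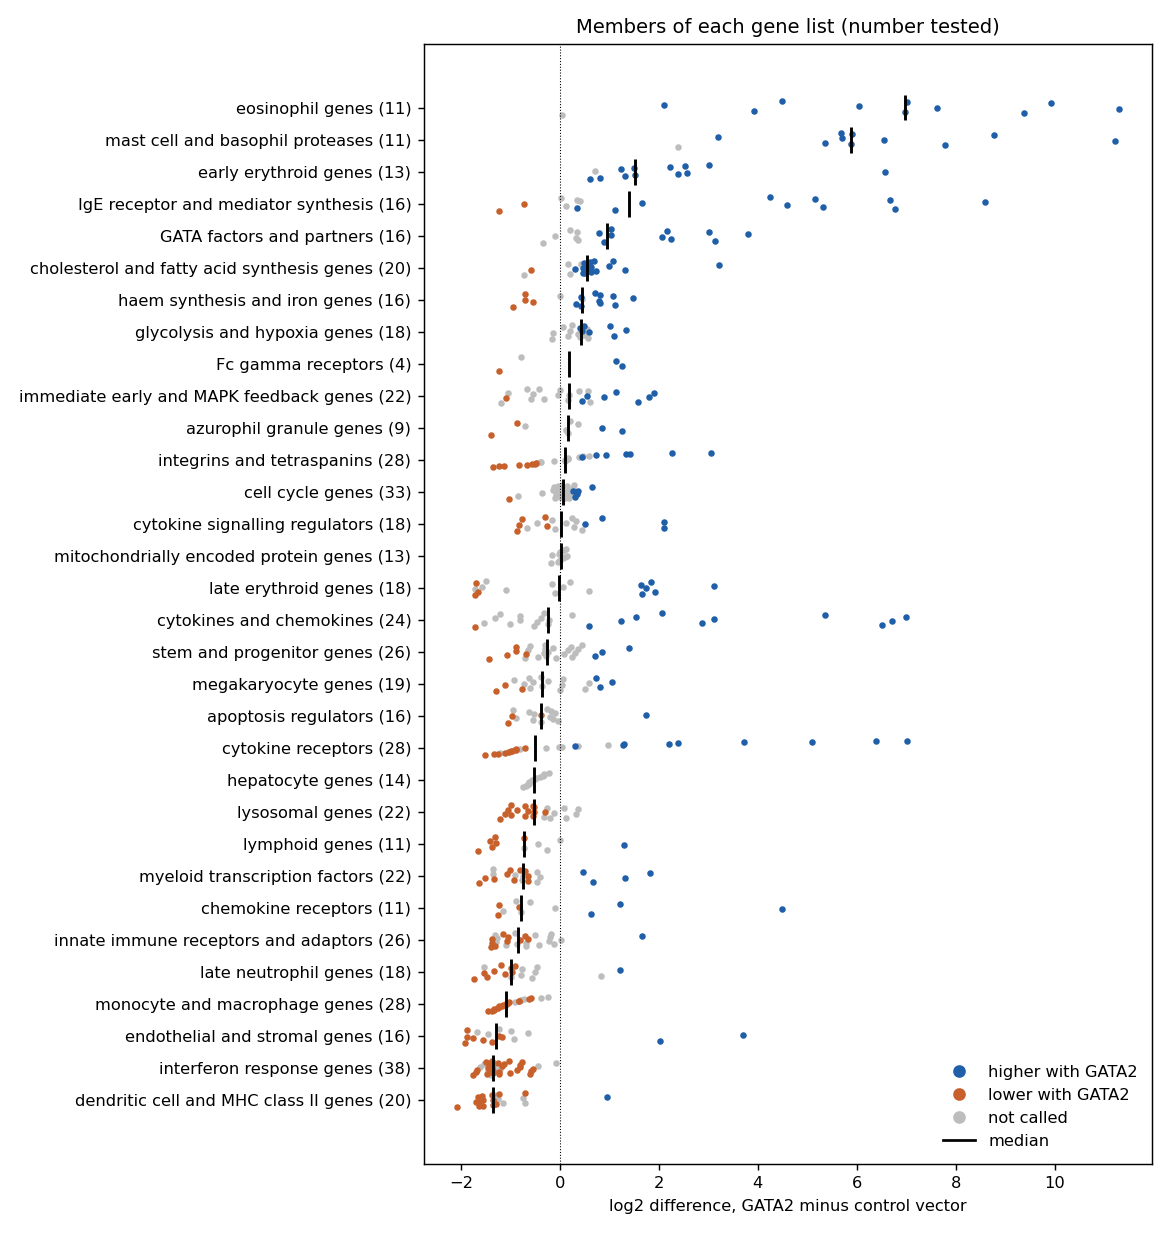
Log2 differences (GATA2 minus control vector, horizontal axis) of the tested members of 32 gene lists, ordered by their median (black bars), with members that rose in blue, members that fell in orange and the rest in grey. The eosinophil list reaches a log2 difference of 11.30 (Epx). The mast cell and basophil protease list reaches 11.22 (Tpsb2), a fitted value for a gene with 0 counts in control-vector cells, whose fold is known only as a bound. The interferon, dendritic cell and monocyte lists lie between -2.08 and 0.96.

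Red cell genes of the early stage rose, while those of the late stage moved both ways. Of 13 early erythroid genes tested 12 rose and 0 fell, with a median log2 difference of 1.52. Their summed level was 1213, 1261, 973 and 1785 CPM in GATA2 cells, against 641, 697, 636 and 663 CPM in control-vector cells. Every GATA2 library was above every control-vector library, and all were below the 4 wild-type libraries, which held 3986 to 5956 CPM. Car1, a carbonic anhydrase switched on in early erythroid cells and in basophil progenitors, measured 17.9, 17.05, 9.97 and 35.5 CPM in GATA2 cells, against 0.188, 0.293, 0.131 and 0.213 CPM in control-vector cells (log2 difference 6.57, SE 0.53, adjusted p = 2.25e-07). Wild-type cells held 10.4 ± 1.48 CPM of Car1 (SD, n = 4; log2 difference of GATA2 cells from them 0.95, adjusted p = 0.0567). Muc13, a mucin of haematopoietic progenitors, rose by 2.53 and lay above its wild-type level (55.9 ± 11.6 CPM in GATA2 cells, 23.8 ± 3.64 CPM in wild-type cells, SD, n = 4 each; log2 difference 1.23, adjusted p = 0.000228). Klf1, Epor, Car2 and Ermap rose by 3.02, 2.39, 2.23 and 2.57 yet stayed below wild-type cells by 1.98, 2.06, 2.27 and 2.55 on the log2 scale (adjusted p 1.38e-05 to 0.000498).

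Of 18 late erythroid genes tested 6 rose and 3 fell. Among those that rose were the membrane protein genes Kel (3.11), Cldn13 (1.83) and Rhag (1.74) and the translocator Tspo2 (1.63). Slc4a1, the anion exchanger band 3, measured 1.47, 3.35, 1.99 and 3.84 CPM in GATA2 cells, against 6.39, 9.21, 5.51 and 12.6 CPM in control-vector cells (log2 difference -1.66, SE 0.44, adjusted p = 0.0135), and wild-type cells held 264 ± 67.02 CPM (SD, n = 4). Trim10, a ubiquitin ligase of terminal red cell maturation, measured 0.215, 0.342, 0.375 and 0.411 CPM in GATA2 cells, against 0.940, 1.13, 0.786 and 1.53 CPM in control-vector cells (log2 difference -1.70, SE 0.35, adjusted p = 0.00219). In both genes every GATA2 library lay below every control-vector library, and wild-type cells were far above both groups, with 27.2 ± 4.33 CPM of Trim10 (SD, n = 4). Hba-a2, an alpha globin gene whose coding sequence is shared with Hba-a1, measured 6.05, 12.1, 7.42 and 21.6 CPM in GATA2 cells, against 19.03, 26.2, 17.6 and 92.5 CPM in control-vector cells (log2 difference -1.72, SE 0.56, adjusted p = 0.0375), with GATA2 library 4 above control-vector libraries 1 and 3. Beta globin Hbb-bs and Hbb-bt had log2 differences of -1.57 and -1.08 and passed with replicate number as a block (adjusted p = 0.000526 and 0.0046), not without it. Control-vector library 4 held 876 CPM of the late list where the other 3 held 223 to 328 CPM, and its part in the members that fell was not tested. Late erythroid genes that fell numbered 1 without GATA2 library 1 or control-vector library 4, 5 without GATA2 library 4, and 7 with replicate number as a block. Slc4a1 lost its call without GATA2 library 1 or control-vector library 4 and Hba-a2 without GATA2 library 1, 2 or 3 or control-vector library 4 (adjusted p 0.0502 to 0.285).

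**Figure D4:**
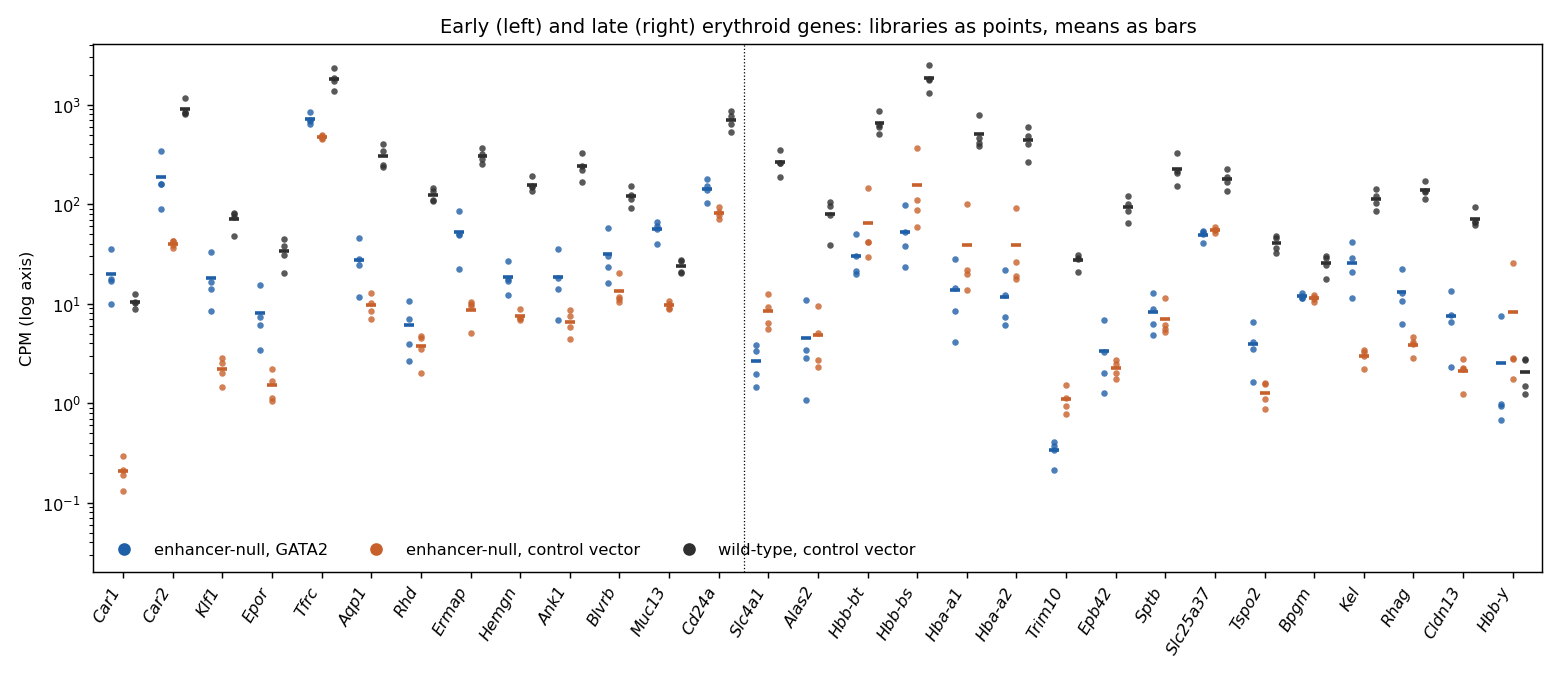
CPM (vertical log axis) of 13 early and 16 of the late erythroid genes in enhancer-null GATA2 cells (blue), enhancer-null control-vector cells (orange) and wild-type control-vector cells (black), with each library as a point and the mean of 4 as a bar. GATA2 cells lie between the other groups for 11 of the 13 early genes, and for Slc4a1, Trim10 and the globins their mean lies below that of control-vector cells.

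Haem synthesis and iron genes changed in both directions. Of 16 tested 10 rose and 4 fell. Those that rose were 7 enzymes of the haem pathway, with Cpox at the upper end (log2 difference 1.47, SE 0.20, adjusted p = 6.03e-05) and Fech at the lower (0.32), the mitochondrial transporter Abcb10 (1.08), the iron importer Slc11a2 (0.81) and the ferrireductase Steap3 (1.12). Those that fell were the ferritin genes Fth1 (-0.71) and Ftl1 (-0.71), the iron exporter Slc40a1 (-0.54) and haem oxygenase Hmox1 (-0.96), genes of iron storage and recycling that macrophages also express. The number that rose was 6 without GATA2 library 4 or control-vector library 3, and the number that fell was 1 without GATA2 library 2 or 4 or control-vector library 4, 2 without GATA2 library 1 or control-vector library 3. Fech lost its call without GATA2 library 2 or 4 or control-vector library 1, 2, 3 or 4, Fth1 without GATA2 library 2 or 4 or control-vector library 4 and Ftl1 without GATA2 library 1, 2 or 4 or control-vector library 1, 3 or 4. Hmox1 did so without GATA2 library 1, 2, 3 or 4 or control-vector library 3 or 4 (adjusted p 0.0519 to 0.197 over all of these).

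Megakaryocyte genes held no common direction, with 3 of 19 rising (Itga2b, Itgb3 and Rab27b) and 3 falling (Gp6, Clec1b and Thbs1). The summed level was 961, 954, 889 and 956 CPM in GATA2 cells, against 855, 937, 1059 and 1463 CPM in control-vector cells, highest in control-vector library 4. Genes that rose numbered 0 without GATA2 library 4 or control-vector library 1, 2 or 3, 1 without GATA2 library 1, 5 without control-vector library 4, and genes that fell 0 without GATA2 library 4 or control-vector library 4, 1 without GATA2 library 1. Itga2b lost its call without GATA2 library 4 or control-vector library 1, 2 or 3, Itgb3 without GATA2 library 1, 2 or 4 or control-vector library 1, 2 or 3 and Rab27b without GATA2 library 1 or 4 or control-vector library 1, 2 or 3. Gp6 did so without GATA2 library 1, 2 or 4 or control-vector library 4, Clec1b without GATA2 library 1 or 4 or control-vector library 4 and Thbs1 without GATA2 library 4 or control-vector library 3 or 4 (adjusted p 0.0534 to 0.215 over all of these).

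Among myeloid transcription factors more fell than rose. Of 22 tested 4 rose and 10 fell, with a median log2 difference of -0.75. Irf8, needed for monocytes and dendritic cells, measured 31.9, 40.6, 63.6 and 13.3 CPM in GATA2 cells, against 111, 107, 95.5 and 111 CPM in control-vector cells (log2 difference -1.51, SE 0.46, adjusted p = 0.0272). Its GATA2 values ran from low in library 4 to high in library 3, all below the control-vector cells, whose values were close together. Irf4 measured 6.48, 4.76, 12.2 and 2.78 CPM in GATA2 cells, against 20.9, 13.1, 19.9 and 26.9 CPM in control-vector cells (log2 difference -1.63, SE 0.38, adjusted p = 0.00619). Spi1, which encodes PU.1, measured 46.3, 66.8, 69.6 and 47.98 CPM in GATA2 cells, against 89.6, 84.3, 86.8 and 116 CPM in control-vector cells (log2 difference -0.71, SE 0.19, adjusted p = 0.0126). Irf5, Tfec and Zeb2 fell as well, by 1.33, 1.01 and 0.65 on the log2 scale. In the other direction Cebpe, the factor of secondary granules in neutrophils and eosinophils, measured 12.9, 23.97, 15.4 and 23.8 CPM in GATA2 cells, against 4.74, 4.73, 4.33 and 7.67 CPM in control-vector cells (log2 difference 1.82, SE 0.33, adjusted p = 0.000909), and Cebpa, Gfi1 and Egr2 rose by 0.67, 0.46 and 1.31. The 4 rises were called whichever library was left out, whereas the number that fell was 1 without GATA2 library 4, 3 without GATA2 library 1 or control-vector library 4. Irf8 lost its call without GATA2 library 1, 2 or 4 or control-vector library 1 or 4, Spi1 and Irf5 without GATA2 library 1 or 4 or control-vector library 4 and Tfec and Zeb2 without GATA2 library 4 (adjusted p 0.0503 to 0.092).

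Genes of monocytes and macrophages fell without exception among those called. Of 28 tested 18 fell and 0 rose, with a median log2 difference of -1.08, and 22 of the 28 had every control-vector library above every GATA2 library. The summed level was 3408, 3184, 4069 and 1771 CPM in GATA2 cells, against 5878, 6280.5, 5737 and 6079 CPM in control-vector cells, so GATA2 library 4 held 0.435 times the level of library 3. Ly6c2, a surface marker of inflammatory monocytes, measured 106, 136, 148 and 38.9 CPM in GATA2 cells, against 277, 325, 227 and 249 CPM in control-vector cells (log2 difference -1.33, SE 0.35, adjusted p = 0.0134). Cd68, a lysosomal membrane protein of macrophages, measured 31.1, 31.1, 47.3 and 22.1 CPM in GATA2 cells, against 67.5, 59.9, 75.1 and 89.7 CPM in control-vector cells (log2 difference -1.15, SE 0.28, adjusted p = 0.00766). Csf1r, Trem2 and C1qb fell by 1.26, 1.34 and 1.08 on the log2 scale. That count was 3 without GATA2 library 4, 4 without GATA2 library 2, 5 without control-vector library 4, 7 without GATA2 library 1, 8 without control-vector library 1, 9 without control-vector library 3, 10 without control-vector library 2. Csf1r lost its call without GATA2 library 1, 2 or 4 or control-vector library 1, 2 or 4, Trem2 without GATA2 library 4 and C1qb without GATA2 library 2 or 4 or control-vector library 4 (adjusted p 0.0511 to 0.105). With library 4 left out of every group 16 fell, and with replicate number as a block 23.

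Genes of dendritic cells and of antigen presentation on MHC class II fell too, with 14 of 20 falling, 1 rising and a median log2 difference of -1.35. Siglech, a lectin of plasmacytoid dendritic cells, measured 1.54, 1.79, 3.00 and 0.343 CPM in GATA2 cells, against 7.78, 6.99, 5.81 and 7.53 CPM in control-vector cells (log2 difference -2.08, SE 0.60, adjusted p = 0.0213), the lowest difference among the 12 lowest genes. H2-Aa, the MHC class II alpha chain, measured 17.4, 12.7, 34.3 and 12.4 CPM in GATA2 cells, against 66.6, 33.8, 64.7 and 73.3 CPM in control-vector cells (log2 difference -1.63, SE 0.34, adjusted p = 0.00272). H2-Aa in GATA2 library 3 was above control-vector library 2, and the groups of Siglech did not overlap. Ciita, the master coactivator of MHC class II, fell by 1.70, Itgax, the integrin CD11c, by 1.36 and Tcf4, the factor of plasmacytoid dendritic cells, by 0.71 on the log2 scale. Against them Zbtb46, known from conventional dendritic cells and also from early erythroid cells, rose (log2 difference 0.96, SE 0.29, adjusted p = 0.0261). Siglech lost its call without GATA2 library 1 or 4, Tcf4 without GATA2 library 2 or 4 or control-vector library 2, 3 or 4 and Zbtb46 without GATA2 library 1 or 4 or control-vector library 2, 3 or 4 (adjusted p 0.0504 to 0.134). Of the 20 genes, 9 fell without GATA2 library 4.

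Interferon response genes had more members that fell than any other list. Of 38 tested 29 fell and 0 rose, the median log2 difference was -1.34, and in 36 of 38 every control-vector library lay above every GATA2 library. The summed level was 914, 1005, 1204 and 498 CPM in GATA2 cells, against 2444, 1939.7, 1710.4 and 1803 CPM in control-vector cells. Ifit3, an antiviral protein gene, measured 25.5, 30.7, 41.9 and 7.78 CPM in GATA2 cells, against 120.3, 84.8, 62.2 and 70.9 CPM in control-vector cells (log2 difference -1.68, SE 0.57, adjusted p = 0.0447). Irf7, a factor that amplifies interferon production, measured 24.6, 29.8, 37.97 and 12.9 CPM in GATA2 cells, against 94.4, 62.3, 51.1 and 79.3 CPM in control-vector cells (log2 difference -1.45, SE 0.39, adjusted p = 0.0152). Bst2, the antiviral membrane protein tetherin, measured 19.9, 18.1, 24.1 and 14.98 CPM in GATA2 cells, against 46.4, 36.5, 32.6 and 41.9 CPM in control-vector cells (log2 difference -1.03, SE 0.22, adjusted p = 0.0031). In all of these GATA2 library 4 was lowest and library 3 was highest. Interferon genes that fell numbered 3 without GATA2 library 4, 12 without GATA2 library 1 or control-vector library 1, 17 without GATA2 library 2, 19 without control-vector library 2, 33 with library 4 left out of every group and 37 with replicate number as a block. Ifit3 lost its call without GATA2 library 1, 2 or 4 or control-vector library 1, 2, 3 or 4 and Irf7 without GATA2 library 4 (adjusted p 0.0565 to 0.136). Wild-type cells held 3.84 ± 3.46 CPM of Ifit3 and 10.7 ± 4.03 CPM of Irf7 (SD, n = 4), below the mean of both enhancer-null groups.

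Innate immune receptors and adaptors leaned to lower levels, although most had no call. Of 26 tested 10 fell, 1 rose and 15 had no call, with a median log2 difference of -0.84. In 20 of the 26 every control-vector library lay above every GATA2 library, against 14.0% of all genes tested. With replicate number as a block 20 fell. Tlr7 and Tlr9, receptors for nucleic acids in endosomes, fell by 1.31 and 1.38, and Unc93b1, the chaperone that carries them there, by 1.38 on the log2 scale. Tmem173, the DNA sensing adaptor STING, measured 39.8, 36.5, 44.04 and 29.3 CPM in GATA2 cells, against 58.4, 56.8, 57.8 and 62.2 CPM in control-vector cells (log2 difference -0.65, SE 0.13, adjusted p = 0.00164). Irak3, a brake on Toll-like receptor signalling, measured 68.3, 70.2, 55.1 and 64.6 CPM in GATA2 cells, against 20.9, 25.4, 17.7 and 17.7 CPM in control-vector cells (log2 difference 1.66, SE 0.16, adjusted p = 1.63e-06). The groups of Tmem173 and of Irak3 do not overlap and lie in opposite directions. Innate genes that fell numbered 3 without GATA2 library 4, 4 without GATA2 library 2, 5 without control-vector library 3 or 4, 6 without GATA2 library 1. Tlr7 lost its call without GATA2 library 1, 2 or 4 or control-vector library 3 or 4 and Tlr9 without GATA2 library 1, 2 or 4 or control-vector library 1, 2, 3 or 4 (adjusted p 0.0523 to 0.155).

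**Figure D5:**
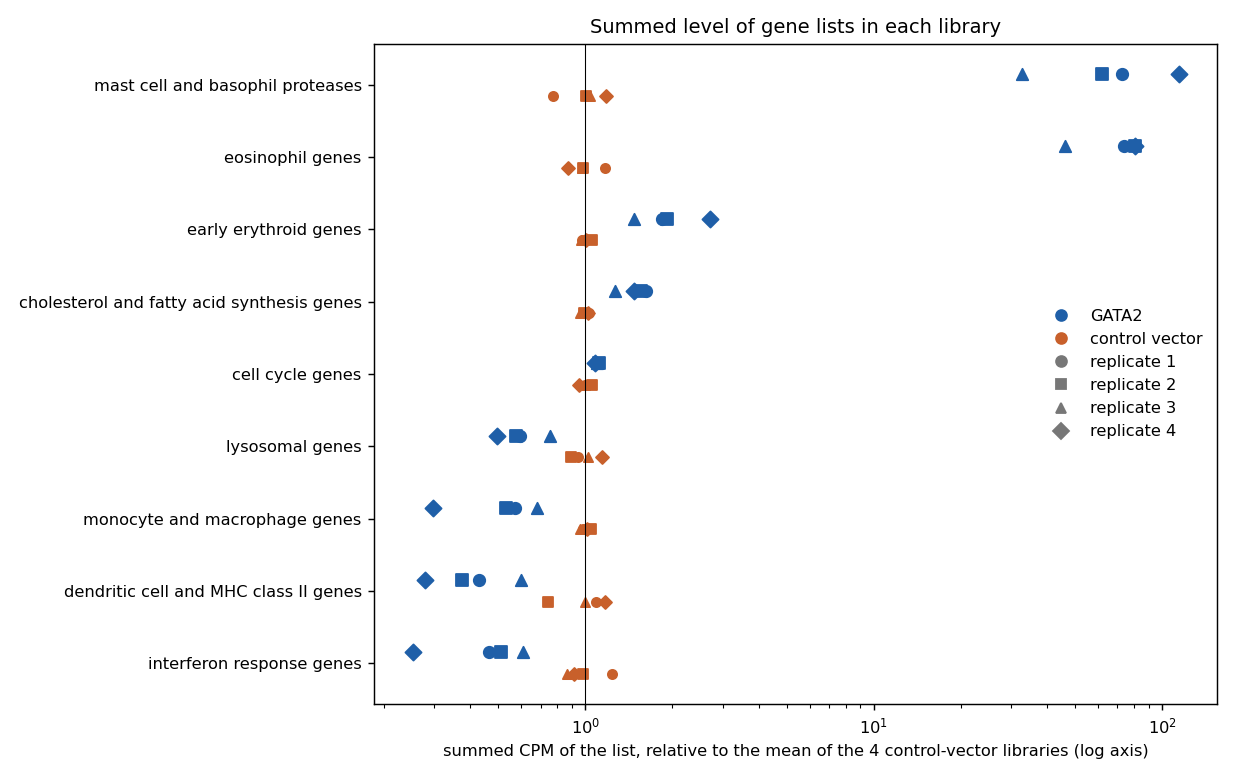
Summed CPM of 9 gene lists in each GATA2 library (blue, upper row of each list) and each control-vector library (orange, lower row), relative to the mean of the 4 control-vector libraries (horizontal log axis), with symbols for replicates. GATA2 library 4 is farthest from 1 for the protease, early erythroid, lysosomal, monocyte, dendritic cell and interferon lists, and library 3 is nearest to 1 for each of those lists.

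Neutrophil genes were read in an early and a late list. Of 9 genes of the first, azurophil granules 2 rose and 2 fell. Mpo, myeloperoxidase, measured 1572, 2232, 1968 and 1683 CPM in GATA2 cells, against 1591, 1739, 1464 and 1862 CPM in control-vector cells without a call. The elastase gene Elane fell (log2 difference -0.87, SE 0.20, adjusted p = 0.00485), as did lysozyme Lyz2 (-1.39), and the protease inhibitor Cst7 rose (log2 difference 1.25, SE 0.19, adjusted p = 0.000209), as did the serine protease Prss57 (0.84). Leaving out any 1 library other than GATA2 library 2 or 3 left 1 gene of these that fell. Lyz2 lost its call without GATA2 library 1, 2 or 4 or control-vector library 1, 2, 3 or 4 (adjusted p 0.0505 to 0.0978).

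Of 18 late neutrophil genes 9 fell and 1 rose, with a median log2 difference of -0.98. Their summed level was 1501 ± 295 CPM in GATA2 cells and 2824 ± 583 CPM in control-vector cells. Wild-type cells lay above both groups, at 10283 ± 4483 CPM (SD, n = 4 each). Camp, the cathelicidin of secondary granules, measured 12.2, 17.1, 11.8 and 9.56 CPM in GATA2 cells, against 26.3, 39.1, 27.7 and 46.8 CPM in control-vector cells (log2 difference -1.47, SE 0.35, adjusted p = 0.00713). Ltf, lactoferrin, measured 40.8, 67.5, 37.9 and 43.2 CPM in GATA2 cells, against 66.6, 144, 88.9 and 179.8 CPM in control-vector cells (log2 difference -1.34, SE 0.40, adjusted p = 0.0263), and GATA2 library 2 overlapped control-vector library 1. The gene that rose was Cxcr2, the chemokine receptor (log2 difference 1.22, SE 0.28, adjusted p = 0.00464). Late neutrophil genes that fell numbered 1 without GATA2 library 1 or 4, 2 without GATA2 library 3 or control-vector library 2 or 4, and 0 with library 4 left out of every group. Ltf lost its call without GATA2 library 1, 3 or 4 or control-vector library 2 or 4 (adjusted p 0.0593 to 0.0937).

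Stem and progenitor genes were mixed, with 3 of 26 rising and 5 falling. Cd34, a surface sialomucin of progenitors, measured 184, 180.1, 282 and 113 CPM in GATA2 cells, against 409.6, 387, 430.5 and 369 CPM in control-vector cells (log2 difference -1.07, SE 0.25, adjusted p = 0.00528). Ly6a, the stem cell antigen Sca-1, which interferon also induces, measured 48.03, 32.3, 63.7 and 14.98 CPM in GATA2 cells, against 119.9, 80.00, 92.8 and 135 CPM in control-vector cells (log2 difference -1.43, SE 0.38, adjusted p = 0.0139). Both were lower in every GATA2 library, and both lay above wild-type cells, which held 60.5 ± 16.4 CPM of Cd34 and 5.75 ± 2.5 CPM of Ly6a (SD, n = 4; log2 differences of GATA2 cells from them 1.65 and 2.80, adjusted p = 5.72e-05 and 4.55e-05). Angpt1, the ligand of the receptor Tek, rose (log2 difference 1.41, SE 0.21, adjusted p = 0.000156), as did Adgrg1 (0.71) and Tek (0.85). The stem cell factors Mecom, Hlf and Meis1 had no call, with log2 differences of -0.65, -0.31 and 0.17. In the fit with replicate number as a block, 10 fell and 4 rose, and the number that fell was 2 without GATA2 library 4, 3 without GATA2 library 1 or 2 or control-vector library 3. Tek lost its call without GATA2 library 1, 2 or 4 or control-vector library 1, 2 or 3 (adjusted p 0.0637 to 0.117).

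Of 11 lymphoid genes tested 6 fell, among them Ighm (log2 difference -1.28, SE 0.28, adjusted p = 0.00409), Rag1 (-1.65) and Rag2 (-1.37), and Il7r, the interleukin-7 receptor, rose. The number that fell was 2 without GATA2 library 2 or 4, and 8 listed lymphoid genes, Pax5 and Cd3e among them, had too few counts to be tested. Rag1 lost its call without GATA2 library 1, 2 or 4 or control-vector library 1, 2 or 4 (adjusted p 0.0591 to 0.137).

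Proliferation genes changed little. Of 33 cell cycle genes 5 rose and 1 fell, with a median log2 difference of 0.05, and their summed level was 6714, 6909, 6798 and 6687 CPM in GATA2 cells, against 6148, 6519, 6148 and 5867 CPM in control-vector cells. E2f2 rose most (log2 difference 0.66, SE 0.16, adjusted p = 0.00918), followed by Tyms (0.36), Cdk6 (0.35), Cdk2 (0.31) and Ccnb2. The cyclin gene Ccnd1 fell (log2 difference -1.03, SE 0.30, adjusted p = 0.0205). Of cell cycle genes 3 rose without GATA2 library 4 or control-vector library 4. Mki67, a protein of dividing cells, measured 1446, 1412, 1329 and 1387 CPM in GATA2 cells, against 1134, 1246, 1139 and 1057 CPM in control-vector cells, without overlap and without a call (adjusted p = 0.0669). Cdk2 lost its call without GATA2 library 1 or 4 or control-vector library 3 or 4, Ccnb2 without GATA2 library 2 or 4 or control-vector library 1 or 4 and Ccnd1 without GATA2 library 4 (adjusted p 0.0532 to 0.11).

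Of 16 apoptosis regulators 1 rose and 3 fell. The pyroptosis gene Casp1, the initiator Casp8 and Bmf fell by 1.05, 0.38 and 0.97 on the log2 scale, and the survival genes Bcl2 and Bcl2l1 had log2 differences of -0.09 and -0.17 without a call. In the fit with replicate number as a block, 9 fell, Mcl1 among them (adjusted p = 0.00972), and 1 fell without GATA2 library 2 or 4 or control-vector library 4. Casp8 lost its call without GATA2 library 1, 2 or 4 or control-vector library 3 or 4 and Bmf without GATA2 library 2 or 4 or control-vector library 4 (adjusted p 0.0516 to 0.0997).

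Adhesion molecules went both ways, with 7 of 28 integrin and tetraspanin genes rising and 8 falling. Itga2, the collagen receptor chain found on mast cells, basophils and platelets, measured 26.2, 17.96, 7.83 and 40.9 CPM in GATA2 cells, against 2.48, 2.22, 3.67 and 2.77 CPM in control-vector cells (log2 difference 3.06, SE 0.36, adjusted p = 1.41e-05). Cd63, a tetraspanin of granule membranes, measured 115, 88.01, 70.3 and 117 CPM in GATA2 cells, against 18.01, 19.6, 20.3 and 22.9 CPM in control-vector cells (log2 difference 2.27, SE 0.26, adjusted p = 1.06e-05). Both groups were far apart in each. Pecam1 rose by 1.34 and the mast cell progenitor integrin Itgb7 by 0.92, whereas Itgax, Itgb5 and Icam1 fell by 1.36, 1.13 and 0.83 on the log2 scale. Without GATA2 library 4 the counts were 3 rising and 2 falling. With another library left out, the number that rose was 4 without GATA2 library 1 or control-vector library 3, and the number that fell was 3 to 5 without GATA2 library 1 or 2 or control-vector library 1, 3 or 4. Itgb7 and Icam1 lost their call without GATA2 library 4 (adjusted p 0.0672 to 0.0699).

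Sterol synthesis rose as a group. Of 20 cholesterol and fatty acid genes 15 rose and 1 fell, with a median log2 difference of 0.54, and 15 rose without GATA2 library 4 as well. Lss, lanosterol synthase, measured 63.7, 57.9, 42.6 and 65.3 CPM in GATA2 cells, against 24.3, 21.5, 24.5 and 21.8 CPM in control-vector cells (log2 difference 1.32, SE 0.17, adjusted p = 2.55e-05). The groups of Lss did not overlap. The desaturases Scd1 and Scd2 rose by 3.22 and 1.08, and the exporter Abcg1 fell (log2 difference -0.59, SE 0.15, adjusted p = 0.0121). Abcg1 lost its call without control-vector library 4 (adjusted p = 0.0545).

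Of 18 glycolysis and hypoxia genes 7 rose and 0 fell, with Hk1 (1.10), Bnip3 (1.33), Slc2a3 (1.02) and Ldha (0.58) among them, and the number was 3 without GATA2 library 1 and 4 without control-vector library 3. Bnip3 lost its call without GATA2 library 1 or 4 or control-vector library 1, 2, 3 or 4 (adjusted p 0.0606 to 0.201). Of the 13 protein genes of the mitochondrial genome 0 were called by edgeR, DESeq2 or limma, and 0 had an unadjusted p under 0.05.

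Lysosomal genes fell, 14 of 22 with 0 rising and a median log2 difference of -0.53. Ctsb, cathepsin B, measured 654, 558, 898 and 444 CPM in GATA2 cells, against 1239, 1058, 1313 and 1429 CPM in control-vector cells (log2 difference -0.98, SE 0.24, adjusted p = 0.00874). Lipa, the acid lipase, measured 85.9, 92.6, 147 and 68.9 CPM in GATA2 cells, against 179, 189.9, 219.8 and 224 CPM in control-vector cells (log2 difference -1.04, SE 0.25, adjusted p = 0.00639). Hexa, a hexosaminidase, measured 120.3, 111, 135 and 114 CPM in GATA2 cells, against 169.6, 153, 172 and 190.5 CPM in control-vector cells (log2 difference -0.51, SE 0.09, adjusted p = 0.000489). The GATA2 libraries were lower in each, by less for Hexa than for Ctsb and Lipa. Psap, Lgmn and Tfeb fell by 1.21, 1.12 and 0.99 on the log2 scale, and 9 of 22 fell without GATA2 library 4. Psap lost its call without GATA2 library 4 and Tfeb without GATA2 library 1 or 4 or control-vector library 4 (adjusted p 0.0503 to 0.0688).

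Genes of liver cells other than blood cells were also measured. The 14 hepatocyte genes held 1749, 831, 961 and 395 CPM in GATA2 cells, against 2307, 1202, 1726 and 840.3 CPM in control-vector cells, lowest in replicate 4 and highest in replicate 1 of both groups, with a median log2 difference of -0.53. Of these genes 0 were called by edgeR, DESeq2 or limma and 0 had an unadjusted p under 0.05, while 1, Trf, was called with replicate number as a block (adjusted p = 0.0411). Among 16 endothelial and stromal genes, 2 rose and 8 fell, and their summed level was 63.6, 56.8, 56.6 and 59.3 CPM in GATA2 cells, against 72.6, 69.6, 76.2 and 111 CPM in control-vector cells. Acta2, an actin of smooth muscle, measured 1.58, 2.28, 4.27 and 1.85 CPM in GATA2 cells, against 5.30, 6.58, 9.13 and 15.8 CPM in control-vector cells. Tagln, an actin-binding protein of the same cells, measured 1.22, 1.94, 2.47 and 0.617 CPM in GATA2 cells, against 2.75, 4.27, 5.55 and 11.1 CPM in control-vector cells. Both are among the 12 lowest differences, and both were highest in control-vector library 4. Pdgfrb, a growth factor receptor of pericytes, went the other way, at 26.8, 24.7, 19.4 and 35.7 CPM in GATA2 cells, against 7.45, 5.91, 6.16 and 6.68 CPM in control-vector cells (log2 difference 2.02, SE 0.28, adjusted p = 7.27e-05), and Igfbp5 rose with it (3.70). The defining endothelial genes Cdh5 and Emcn stood at 0.533 to 1.18 CPM in GATA2 cells and 0.489 to 4.26 CPM in control-vector cells. Of the 16, 3 fell without GATA2 library 4 or control-vector library 4, and 13 with replicate number as a block. Tagln lost its call without GATA2 library 4 or control-vector library 4 (adjusted p 0.0646 to 0.0747). The part these cells have in the genes that fell was not tested.

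The remaining genes of the 12 highest and 12 lowest differences follow. Slc26a3, a chloride and bicarbonate exchanger, measured 10.4, 9.59, 4.39 and 12.1 CPM in GATA2 cells, against 0.0752, 0.126, 0.0437 and 0 CPM in control-vector cells (log2 difference 7.15, SE 0.73, adjusted p = 3.24e-06). Chst13, a chondroitin sulphotransferase, measured 7.13, 8.37, 6.18 and 8.60 CPM in GATA2 cells, against 0.0376, 0.0838, 0 and 0.0711 CPM in control-vector cells (log2 difference 7.13, SE 0.55, adjusted p = 1.7e-07). Neither gene had more than 0.126 CPM in any control-vector library. At the lower end Mycl, a MYC relative of dendritic cells, measured 1.15, 0.875, 4.16 and 0.720 CPM in GATA2 cells, against 7.67, 5.49, 6.16 and 7.85 CPM in control-vector cells (log2 difference -1.98, SE 0.49, adjusted p = 0.00894), and Hpgd, which degrades prostaglandins, measured 6.30, 5.63, 16.6 and 2.02 CPM in GATA2 cells, against 23.1, 21.4, 31.2 and 32.9 CPM in control-vector cells (log2 difference -1.83, SE 0.48, adjusted p = 0.0128). Chil3, a chitinase-like protein of myeloid cells, and Klrk1, the receptor NKG2D, fell by 1.74 and 1.78 on the log2 scale, and the interferon-induced Ifit1bl1, Tgtp1, Ifit3b, Phf11a and Ifi205 by 1.86, 1.83, 1.76, 1.74 and 1.72. Of the 12 lowest, Mycl, Acta2 and Hpgd were called whichever library was left out. Chil3 lost its call without GATA2 library 1 or 4, Klrk1 and Ifit3b without GATA2 library 1, 2 or 4 or control-vector library 1 or 2 and Ifit1bl1 without GATA2 library 1, 2 or 4 or control-vector library 1. Tgtp1 did so without GATA2 library 1, 2 or 4 or control-vector library 1, 3 or 4, Phf11a without GATA2 library 1, 2 or 4 or control-vector library 1, 2 or 3 and Ifi205 without any 1 of the 8 libraries (adjusted p 0.0514 to 0.144 over all of these).

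In 20 genes the control-vector cells held at most 3 counts over all 4 libraries where GATA2 cells averaged at least 1 CPM, and 12 of these encode proteins by the annotation. Beside the mast cell and cytokine genes above they include Prss28, a serine protease, with 314 counts against 0 (at least 95.6-fold higher), and Alox12e, a lipoxygenase, with 189 against 0 (at least 57.5-fold higher), floors of 3 counts over the group. The mucin gene Muc20 had 188 counts against 1 and the chemokine receptor gene Ccr8 117 against 2. The 4 copies of the small nucleolar RNA gene Rnu3b hold identical values, as near copies whose reads cannot be told apart can, and their level lay in GATA2 libraries 1 and 4 (38.00 and 35.6 CPM) with 0 and 1.61 CPM in libraries 2 and 3. The mirror case held 1 gene, Fam177a, with 0 counts in GATA2 cells against 604 in control-vector cells, all in library 4.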

How the data were processed

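RNA from the 20 libraries was measured by RNA sequencing (NuGEN Ovation protocol, per the labels). Reads were aligned with STAR 2.5.2b to mm10 and quantified per gene with RSEM 1.3.0, per the submitters' processing notes, and the annotation and use of strand are not given in the sources used here. The authors deposited expected counts, TPM and FPKM per gene and library, per the file headers, and FPKM was not used. RSEM divides reads shared by near-identical genes, so values within such families are uncertain, and reads of overlapping genes on opposite strands may not be told apart. Symbols matched 53274 of 53379 gene IDs, and IDs without a symbol held at most 0.0148% of a library.

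Deposited expected counts were rounded to whole numbers, filtered with filterByExpr (15835 genes kept) and scaled by the trimmed mean of M values. edgeR 4.0.16 (R 4.3.3) fitted 5 group means over all 20 libraries with 15 residual degrees of freedom and tested with its quasi-likelihood F test, adjusted by Benjamini-Hochberg at 0.05. Totals were 22776714 to 29727013 counts in the 8 libraries compared, of which the mitochondrial ribosomal gene mt-Rnr2 took 18.0% to 20.0%. Replicates differed by 18.1 to 68.4 chi-square units per degree of freedom, so none was a repeat of another. The procedure was tested on simulated data. Same-numbered GATA2 and control-vector libraries deviated together from their group means (correlations 0.263, 0.124, 0.146 and 0.300 across genes, each the highest for its GATA2 library), so the replicate number was taken to pair the libraries in the alternative fits with a block, from the data and not from a stated design. That check covered neither the wild-type nor the mutant libraries, whose pairing by number in the wider blocks is assumed. Calls in the text are from the fit without the block unless it is named. Values with the block are from the fit over 20 libraries unless another is given.

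Alternatives were DESeq2 size factors, no filter, the replicate number as a block (20, 16 or 8 libraries), the 8 libraries alone, the DESeq2 1.42.0 Wald test, limma 3.58.1 on log2 of the deposited TPM plus 1 or plus 0.1, protein-coding genes alone, each of the 8 libraries left out, library 4 left out of every group and, chosen later with results known, the block without library 4. The genes named by rule are Gata2, the 12 highest and 12 lowest log2 differences among genes called with at least 5 CPM in a group and no overlap, the first 3 tested members and the 5 lowest adjusted p-values of each of 33 lists, members against their list's direction, and 12 genes near zero counts in control-vector cells. Other list members given by their log2 difference alone were chosen after their values were seen, to fill out a family or pathway. The libraries compared and the lists were chosen with earlier results of these data known. Some genes are counted in their lists but not reported here by name. Promoters are from RefSeq, and those printed or named are of genes with a single listed start. The 32851 windows and the shares of genes with a window include genes with several listed starts.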

Additional observations from a re-analysis of the deposited data

Results flagged for a closer look

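Among 116 groups of 4 values checked, 9 had 1 library far from the other 3, where chance gives about 1 in 20 groups. In GATA2 cells, library 3 held the lowest Ear1 level (47.3 CPM), the highest Mycl level (4.16 CPM) and the lowest summed megakaryocyte genes (889 CPM), and library 4 held the lowest Ifi205 level (2.81 CPM). In control-vector cells, library 3 held the highest Epx level (0.306 CPM) and the highest Fcer1a level (0.0437 CPM), library 2 the highest Tpsg1 level (0.0419 CPM), and library 4 the highest sums of late erythroid genes (876 CPM) and of endothelial and stromal genes (111 CPM). The values of Fcer1a and Tpsg1 are 1 count each, with 0 in the other control-vector libraries.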

How the results depend on the processing

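No gene named here or in a list had opposite signs in the report and under an alternative where either value was a call. Members without a call did change sign, and the median log2 difference of the megakaryocyte list, -0.36, was 0.11 without control-vector library 4. The total of 3042 genes called was 5258 with the replicate block over the 16 enhancer-null libraries and 1996 with library 4 left out of every group, and it ranged from 1574 (without GATA2 library 4) to 3393 with 1 library left out. The 1304 genes that fell were 1992, 2774 and 2128 with the replicate block over 20, 16 and 8 libraries, 753 with library 4 left out of every group, and 420 (without GATA2 library 4) to 1471 with 1 library left out, with 699 without control-vector library 4 and 751 and 754 without GATA2 libraries 1 and 2. The 1738 genes that rose ranged from 1154 (without GATA2 library 4) to 1922 with 1 library left out. The 1340 genes with a fold over 2 were 576 by limma on log2(TPM + 1), which shrinks folds of low values by its construction, 890 with library 4 left out of every group, and 787 (without GATA2 library 4) to 1680 with 1 library left out. Apart from that the cause was not tested. Of the genes called, 3037 of 3042 were also called with the replicate block over 20 libraries, which ended no call of a named or listed gene and changed no other call of them than the 83 it added. Of 331 such genes called, 142 lost their call without GATA2 library 4. DESeq2 size factors split the calls 1663 rising and 1379 falling, and the median over all genes tested was 0.00. Depth limits genes near zero counts, whose folds are bounds or carry wide counting intervals.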

Other observations

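Non-coding genes rose more often than they fell. Of 364 long intergenic non-coding genes tested 38 rose (10.4%) and 11 fell (3.02%), and of 256 genes annotated as antisense 26 rose (10.2%) and 7 fell (2.73%), beside 1558 that rose and 1251 that fell (9.63%) among 12992 protein-coding genes. Whether these shares differ was not tested, and reads of antisense genes may come from their partners on the other strand. Some small nucleolar RNA genes were carried by single libraries: Gm23925 had 218 counts in GATA2 cells, at 7.99 CPM in library 2, 0.287 CPM in library 1 and 0 CPM in libraries 3 and 4, and 0 counts in control-vector cells.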
